A study of Homo sapiens with 12 samples.

Results

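Keratins are the intermediate filament proteins of epithelial cells, and 9 epithelial keratin genes were followed here in HT-29 cells, a human colon adenocarcinoma line, during necroptosis. The genes were taken by name from the deposited tables: KRT7, KRT8, KRT15, KRT17, KRT18, KRT19, KRT20, KRT23 and KRT80. All 9 were listed among the 26485 genes, and all 9 passed the minimum of 10 normalized reads on average that left 11758 genes for testing. A keratin filament is built from pairs of an acidic type I and a basic type II chain, so neither type forms filaments alone. KRT8 and KRT18 are the principal pair of the intestinal epithelium, to which KRT19 and KRT20 add further type I chains. Other keratins are known for their rise in wounded or stressed epithelia, KRT17 among them.

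The cells were treated for 8 h in 4 groups of 3 libraries. The first group received DMSO, the second 10 ng/ml TNFα. The third received TSZ, which is 10 ng/ml TNFα with 50 nM SM-164, a Smac mimetic that removes IAP proteins, and 20 μM zVAD, a caspase inhibitor. The last received TSZ with 10 μM Nec-1s, an inhibitor of the RIPK1 kinase, which blocks the necroptosis that TSZ induces. The groups therefore differ from DMSO by 1, 3 or 4 agents, the data come from a single cell line, and separate cultures for the 3 libraries per group are not stated in the sources used here. P-values then measure only the spread between these libraries, which may be technical. In bulk RNA of a dying culture, fewer cells and less RNA per cell cannot be told apart.

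The deposited tables give the mean of each group, and the whole reads of each library were solved from those means. The 3 libraries per group are called a, b and c here, and a letter ties no library to one of another group. The libraries held 8765182 to 12734104 reads. Levels are given as normalized reads, that is, reads divided by the size factor of the library, and changes as log2 fold changes from limma with p-values adjusted over all 11758 genes. For KRT8 in 3 groups and KRT18 in TSZ several whole-read solutions fitted the deposited mean, and the one whose spread between libraries lay within that of other abundant genes was used. Their group means do not depend on this choice, but their spread and their p-values do.

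Of 14 markers of colon epithelium, 8 averaged at least 10 normalized reads in each group, EPCAM, CDH1 and VIL1 among them. The 14 summed to 18880.8 to 20915.7 normalized reads in DMSO, 18952.7 to 20551.3 after TNFα, 30945.7 to 34349.8 after TSZ and 19901.7 to 20440.0 after TSZ+Nec-1s. The sum was highest in the TSZ libraries, as most keratins were, but not every marker was. VIL1 averaged 1105.5, 732.8, 995.1 and 639.1 normalized reads in the same order, and MUC13 652.5, 573.2, 586.5 and 535.7, both highest in DMSO. VIL1 was called lower than in DMSO with TNFα (log2 fold change -0.59, limma, adjusted p = 0.00557) and with TSZ+Nec-1s (-0.78, limma, adjusted p = 0.00029). Of the 8 tested, 6 were higher in TSZ than in DMSO and 6 higher in TSZ than in TSZ+Nec-1s by limma, where 26.1% and 22.8% of all genes were called higher. The tight junction genes CLDN4, CLDN3 and CLDN7 had the largest changes from DMSO to TSZ among those called, log2 fold changes of 1.60, 0.86 and 0.67 (limma, adjusted p = 5.1e-07, 0.00036 and 0.00207). The remaining colon markers, CDX1, CDX2, CDH17, GPA33, PHGR1 and FABP1, averaged under 10 normalized reads in each group and were not tested. Transcripts of CDX1, a transcription factor of the intestine, were at 0 in DMSO and in TSZ+Nec-1s and averaged only 0.334 with TNFα and 0.74 with TSZ. Those of CDH17, an intestinal cadherin, were at 0 in TSZ+Nec-1s and averaged 1.001 in DMSO, 0.979 with TNFα and 3.475 with TSZ. Both rest on very few reads. In stratified epithelium markers KRT6A and LOR were at 0 in every library. The leukocyte markers PTPRC, CD3E, MS4A1 and FCGR3A were also at 0 throughout. The 9 leukocyte markers still summed to 88.72 to 94.54 normalized reads in DMSO, 169.1 to 206.9 after TNFα, 101.0 to 154.7 after TSZ and 212.7 to 268.9 after TSZ+Nec-1s, nearly all from ITGAM and CD14. From DMSO to TSZ ITGAM, an integrin chain, changed by a log2 fold change of 3.70 (limma, adjusted p = 5.9e-06) and CD14, a lipopolysaccharide co-receptor, by -2.65 (limma, adjusted p = 8.9e-06). The 9 fibroblast and endothelial markers summed to 56.65 to 201.8 normalized reads in DMSO, 47.16 to 63.05 in TNFα, 213.3 to 495.9 in TSZ and 45.07 to 60.77 in TSZ+Nec-1s, with CDH5 at 0 throughout. Most of that sum was COL1A1 and COL1A2. The part of these marker lists in the keratin results was not tested.

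KRT20, a type I keratin of differentiated intestinal cells, is one of the 2 members with an entry in the RefSeq promoter table. The 250 bases upstream of its start are shown because KRT20 varied little between libraries and rose in every treated group. The stretch lies on the minus strand at chr17:40885243-40885492 (GRCh38.p14), directly before the gene, and is written in lower case because neither motif searched matched it.

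KRT20 upstream: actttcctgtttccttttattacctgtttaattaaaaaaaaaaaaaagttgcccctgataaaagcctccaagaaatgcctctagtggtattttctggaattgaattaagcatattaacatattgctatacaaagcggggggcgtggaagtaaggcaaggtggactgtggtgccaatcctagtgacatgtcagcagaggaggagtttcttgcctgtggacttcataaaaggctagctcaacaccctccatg

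KRT8 upstream: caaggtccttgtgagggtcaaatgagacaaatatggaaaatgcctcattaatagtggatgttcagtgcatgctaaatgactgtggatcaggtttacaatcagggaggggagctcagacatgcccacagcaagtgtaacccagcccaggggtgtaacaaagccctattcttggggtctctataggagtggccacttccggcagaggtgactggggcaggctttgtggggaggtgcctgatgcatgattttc

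The second stretch, upstream of a KRT8 start on the minus strand at chr12:52926470-52926719, is shown as the member with the smallest change beside one with a large change. Unlike that of KRT20, it lies inside the annotated span of its gene, chr12:52897187-52949954, and not directly before it. Both strands of each 300-base window were searched for the AP-1 motif, TGACTCA or TGAGTCA, and for the NF-κB motif. Of all 35116 promoters in the table, 4.95% held the AP-1 motif and 11.3% the NF-κB motif. The absence of a match says only that these letters are not in these windows. The other 7 members have no entry in this table.

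To ask how the keratins of necroptotic cells compare with those of untreated cells, TSZ was set against DMSO. Of the 9 keratins 8 were higher with TSZ and none was lower, while 26.1% of all tested genes were called higher and 24.1% lower. The median log2 fold change of the 9 was 0.99, beside -0.01 over all tested genes. The changes ran from 4.47 for KRT17 to 0.47 for KRT8. KRT15 alone did not pass the test. No keratin was called lower in any of the 6 comparisons by limma, with precision weights or with a mean-variance trend. At an unadjusted p under 0.05 by either, 1 keratin, KRT80, was lower from DMSO to TSZ+Nec-1s and from TNFα to TSZ+Nec-1s, and 0 were lower elsewhere.

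KRT17, a type I keratin known from wounded and proliferating epidermis, showed the largest change of the 9. Its level was 143.2, 106.2 and 157.1 normalized reads in the DMSO libraries and 2668.0, 3069.8 and 3237.1 with TSZ. It was 284.0, 465.8 and 367.3 with TNFα and 438.1, 402.0 and 413.5 with TSZ+Nec-1s. All TSZ libraries stood far above the other 9, all DMSO libraries stood below the rest, and the TNFα and TSZ+Nec-1s libraries overlapped. KRT17 rose by a log2 fold change of 4.47 ± 0.18 (SE) from DMSO to TSZ (limma, adjusted p = 6.8e-10), a 22.2-fold change. With TSZ it was also 2.83 ± 0.15 above TSZ+Nec-1s (limma, adjusted p = 1.4e-08).

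KRT20 had the tightest replicates in DMSO, TNFα and TSZ. It measured 1420.8, 1437.9 and 1354.3 normalized reads in DMSO, 2367.7, 2373.2 and 2375.0 after TNFα, 8738.5, 8516.6 and 8223.6 after TSZ, and 3139.4, 3056.8 and 3182.0 after TSZ+Nec-1s. The 4 groups did not overlap, and they ranked DMSO, TNFα, TSZ+Nec-1s and TSZ from low to high. KRT20 rose by a log2 fold change of 2.60 ± 0.07 (SE) with TSZ (limma, adjusted p = 2.1e-11), a 6.05-fold change. Its upstream sequence, shown above, held neither motif.

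KRT23, a type I keratin, and KRT7, a type II keratin of ductal epithelia, were expressed at low levels and rested on few reads, in the DMSO libraries 13, 11 and 24 reads for KRT23 and 35, 14 and 44 for KRT7. KRT23 gave 11.71, 11.56 and 25.65 normalized reads in DMSO, 40.18, 27.91 and 32.03 after TNFα, 71.00, 85.78 and 63.08 after TSZ and 45.07, 35.60 and 34.20 after TSZ+Nec-1s. The TSZ libraries were the highest, and no treated library fell to the level of a DMSO library. KRT7 gave 31.51, 14.72 and 47.03 in DMSO, 63.54, 76.99 and 75.06 after TNFα, 92.08, 114.0 and 142.8 after TSZ and 83.03, 91.16 and 82.49 after TSZ+Nec-1s. The KRT7 libraries of DMSO lay below all others, while the lowest TSZ library was close to the highest TSZ+Nec-1s library. With TSZ the log2 fold change from DMSO was 2.24 ± 0.30 (SE) for KRT23 (limma, adjusted p = 4.2e-05) and 2.0 ± 0.31 for KRT7 (limma, adjusted p = 0.00015).

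KRT8 and KRT18 made up most keratin reads. KRT8, the type II partner, gave 81518.0, 60651.3 and 90380.7 normalized reads in DMSO, 75453.7, 91186.0 and 79683.3 after TNFα, 95479.6, 109765.1 and 114411.2 after TSZ and 79951.3, 79407.4 and 75118.1 after TSZ+Nec-1s. KRT18, the type I partner, gave 45069.2, 33159.9 and 51329.4 in DMSO, 42858.4, 52739.5 and 46337.7 after TNFα, 59792.5, 68347.0 and 73182.6 after TSZ and 43289.4, 45044.2 and 42657.4 after TSZ+Nec-1s. With the whole-read solutions used, the 3 TSZ libraries of both genes were above all others, and the other 3 groups overlapped. Under every other TSZ solution a TSZ library fell among those of the other groups, such as 85997.5 for KRT8 and 44579.4 for KRT18. From DMSO to TSZ the log2 fold change was 0.47 ± 0.13 (SE) for KRT8 (limma, adjusted p = 0.00873) and 0.65 ± 0.14 for KRT18 (limma, adjusted p = 0.00168).

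The rises of this pair depended on how libraries were scaled. When libraries were scaled to their total reads, the log2 fold change from DMSO to TSZ was 0.06 for KRT8 (limma, adjusted p = 0.643) and 0.24 for KRT18 (limma, adjusted p = 0.0929). That scaling moved the median of all genes to -0.42, so both genes stayed above that median. KRT8 took 0.811% ± 0.139 (SD, n = 3) of all reads in DMSO and 0.84% ± 0.0558 with TSZ, and KRT18 0.452% ± 0.0848 and 0.529% ± 0.0393. The KRT8 call was also lost with upper-quartile scaling (log2 fold change 0.35, limma adjusted p = 0.0599) and under 9 of the 13 other whole-read solutions for its reads, where the adjusted p of limma ran from 0.0628 to 0.184 and the log2 fold change from 0.39 to 0.47 over all 13.

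KRT19, the type I keratin that lacks a tail domain, gave 7455.3, 5655.9 and 9009.5 normalized reads in DMSO, 7217.0, 8985.6 and 7932.8 after TNFα, 13093.8, 14774.8 and 15296.3 after TSZ and 7865.0, 8060.1 and 7753.2 after TSZ+Nec-1s. KRT80, a type II keratin, gave 1762.1, 1437.9 and 1942.1 in DMSO, 1715.5, 1787.1 and 1901.6 after TNFα, 2895.4, 3346.4 and 3827.4 after TSZ and 1381.5, 1447.2 and 1341.0 after TSZ+Nec-1s. In both genes the TSZ libraries stood clear of the other 9. Their log2 fold changes from DMSO to TSZ were close to each other, 0.99 ± 0.14 (SE) for KRT19 (limma, adjusted p = 7.7e-05) and 0.97 ± 0.12 for KRT80 (limma, adjusted p = 2.6e-05).

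KRT15, a type I keratin of basal cells, was the exception. Its levels were 37.82, 34.69 and 42.75 normalized reads in DMSO, 42.98, 44.27 and 49.04 after TNFα, 37.72, 71.10 and 76.17 after TSZ and 44.28, 55.56 and 49.29 after TSZ+Nec-1s. TSZ library a lay within the DMSO range and the other two TSZ libraries above every other library. The log2 fold change from DMSO to TSZ was 0.61 with a 95% interval from 0.05 to 1.18 (limma, adjusted p = 0.0673). Without TSZ library a it was 0.94 (limma, adjusted p = 0.00187) and after the per-library GC trend was taken out it was 0.63 (limma, adjusted p = 0.00971).

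**Figure D1:**
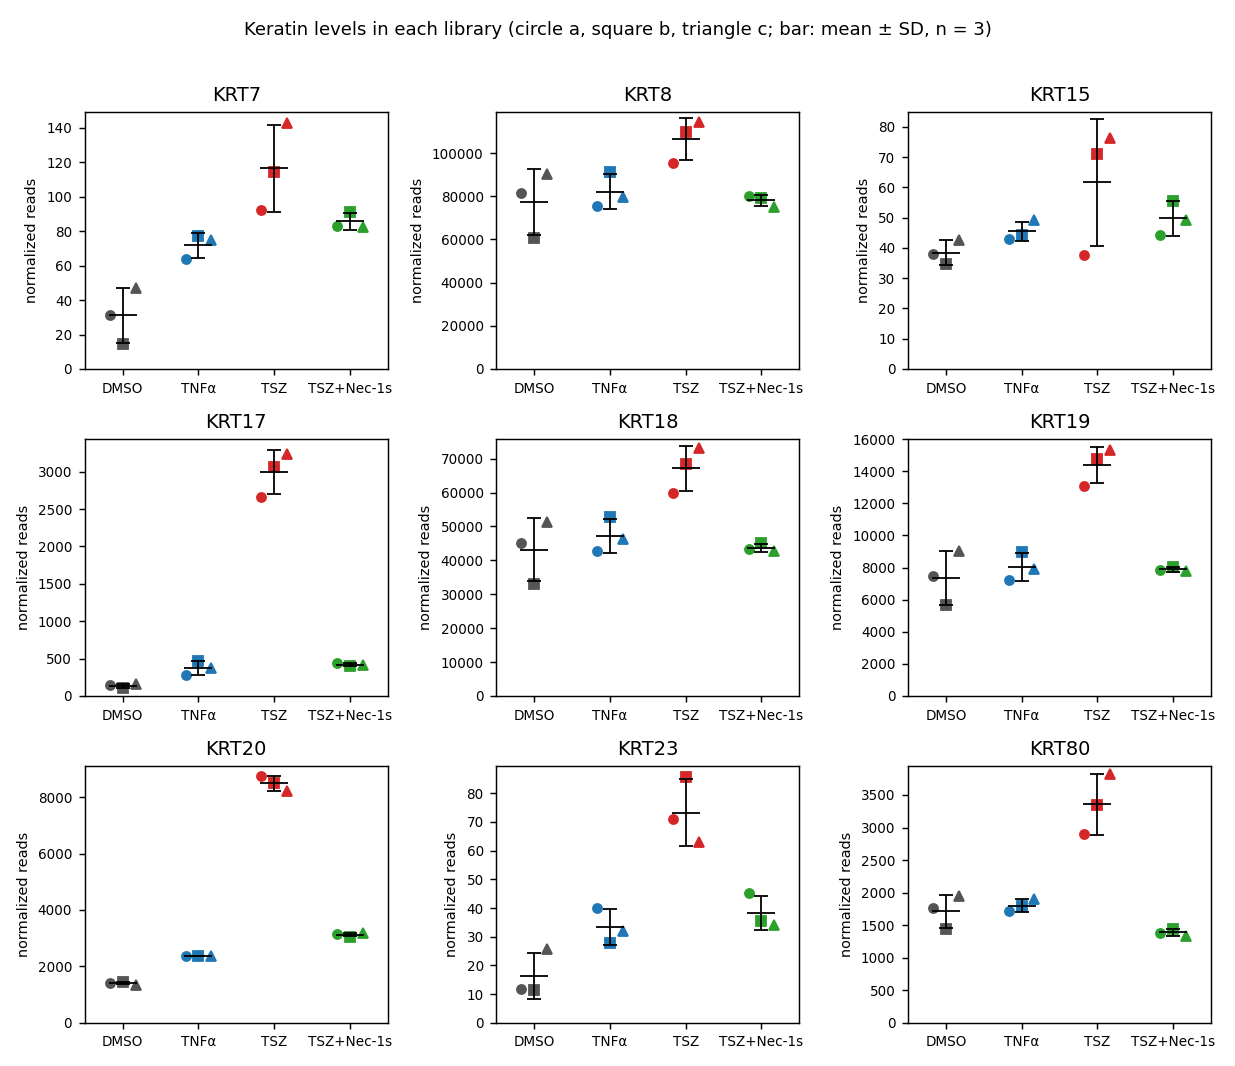
Normalized reads of each keratin (vertical axes, linear and starting at 0) in the 3 libraries of each group (horizontal axes), where points are libraries and bars give the mean ± SD. The TSZ libraries are the highest for all genes but KRT15, whose TSZ library a sits at 37.72, within the DMSO range. For KRT8 and KRT18 this rests on the whole-read solutions used.

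To ask how much of this remained when RIPK1 was inhibited, TSZ was compared with TSZ+Nec-1s, and TSZ+Nec-1s with DMSO. These comparisons share the TSZ+Nec-1s libraries, and the comparison of TSZ with DMSO shares libraries with both. Against TSZ+Nec-1s, 7 of the 9 keratins were higher with TSZ (limma). Over all genes 22.8% were called higher and 19.8% lower. The log2 fold changes ran from 2.83 for KRT17 and 1.44 for KRT20 to 0.44 for KRT8 (limma, adjusted p = 0.0157). KRT7, at 0.42, did not pass (95% interval from -0.10 to 0.93, limma, adjusted p = 0.18), nor did KRT15 at 0.25 (limma, adjusted p = 0.433). Scaled to total reads only 4 passed, with KRT8, KRT18 and KRT23 lost, while over all genes 1413 were then called higher and 4941 lower, against 2683 and 2324. The KRT8 call was also lost without TSZ library b, without TSZ library c or without TSZ+Nec-1s library c, at an adjusted p of 0.0537, 0.0641 and 0.056 by limma, and under 10 of its 13 other whole-read solutions. Without each of these libraries in turn, 2141 to 2210 genes were called higher and 1765 to 1791 lower over all. KRT15 passed without TSZ library a (0.57, limma adjusted p = 0.0243).

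Set against DMSO, TSZ+Nec-1s left KRT17, KRT20, KRT23 and KRT7 higher, 4 of the 9 keratins, beside 7.18% of all genes called higher and 5.73% called lower. The log2 fold change was 1.64 for KRT17 (limma, adjusted p = 0.0001), 1.15 for KRT20 (limma, adjusted p = 3.2e-07), 1.32 for KRT23 (limma, adjusted p = 0.0136) and 1.59 for KRT7 (limma, adjusted p = 0.0043). These are 36.6%, 44.5%, 58.9% and 79.2% of the log2 fold change of the same gene with TSZ, ratios on the log2 scale given with no interval. In DMSO, TSZ+Nec-1s and TSZ KRT17 averaged 135.5, 417.8 and 2991.6 normalized reads, and KRT20 1404.3, 3126.1 and 8492.9. The share of added reads that remained was thus smaller than these percentages for both. The KRT23 call was lost without DMSO library a (log2 fold change 1.13, limma adjusted p = 0.0865) and without TSZ+Nec-1s library a (1.19, limma adjusted p = 0.0615). Over all genes 559 and 548 were then called higher and 317 and 310 lower, against 844 and 674.

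The abundant keratins showed no call in that comparison. The log2 fold change from DMSO was 0.03 for KRT8 (95% interval from -0.25 to 0.31), 0.04 for KRT18 (from -0.26 to 0.34) and 0.12 for KRT19 (from -0.18 to 0.43). KRT80 stood at -0.29 (from -0.56 to -0.02; limma, adjusted p = 0.157), and 2 of its 3 TSZ+Nec-1s libraries were below every DMSO library. Without DMSO library b the KRT80 value was -0.41 (limma, adjusted p = 0.013), and with total-read scaling it was -0.37 (limma, adjusted p = 0.0321). Calls over all genes moved too, from 844 higher and 674 lower. They went to 2231 and 1691 without DMSO library b, and to 726 and 1320 with total-read scaling.

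Comparisons with the TNFα group came next. From TNFα to TSZ the groups differ by SM-164 and zVAD, with necroptosis induced, and from TNFα to TSZ+Nec-1s by Nec-1s as well. The effects of single agents cannot be told apart in the comparisons with TSZ or TSZ+Nec-1s. From DMSO to TNFα 3 of the 9 keratins were higher, beside 3.14% of all genes higher and 1.07% lower. They were KRT17 at a log2 fold change of 1.44 (limma, adjusted p = 0.00078), KRT20 at 0.76 (limma, adjusted p = 3.8e-05) and KRT7 at 1.33 (limma, adjusted p = 0.0331). The KRT7 call was the weakest of these: without DMSO library b it was 0.90 (limma, adjusted p = 0.067), and the call was lost in 8 of the 12 fits that left out a library, those without DMSO library a or b or any library of TNFα or TSZ+Nec-1s. In these 8 fits 244 to 388 genes were called higher and 41 to 214 lower over all, against 369 and 126. The KRT7 call was also lost when only these 2 groups were fitted (1.33, limma adjusted p = 0.152). Over all genes 194 were then called higher and 26 lower. KRT23 stood at 1.11 (limma, adjusted p = 0.0782). It passed without DMSO library c (1.47, limma adjusted p = 0.0285).

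From TNFα to TSZ 8 of the 9 keratins were higher, all but KRT15, beside 22.9% of all genes higher and 21.6% lower. KRT17 led with a log2 fold change of 3.03 (limma, adjusted p = 7.7e-09), followed by KRT20 with 1.84 (limma, adjusted p = 5.4e-10). KRT7 at 0.67 (limma, adjusted p = 0.0438) and KRT8 at 0.38 (limma, adjusted p = 0.0323) had the largest adjusted p-values of the 8, and both calls were lost with total-read and with upper-quartile scaling. With total-read scaling 5 keratins passed, KRT18 being lost too, while over all genes 1503 were then called higher and 4989 lower, against 2694 and 2536. The KRT7 call was also lost with limma's mean-variance trend in place of weights (adjusted p = 0.108 and 0.0846 at pseudocounts of 1 and 5), with every gene with a read (limma, adjusted p = 0.0594) and at a minimum mean of 50 (limma, adjusted p = 0.0526). Leaving out 1 library lost the KRT7 call in 9 of 12 fits (log2 fold change from 0.52 to 0.83) and the KRT8 call in 4, those without TNFα library a or c or TSZ library b or c. In the fits that lost either call, 2265 to 2608 genes were called higher and 2104 to 2430 lower, against 2694 and 2536. The KRT8 call was lost under all 13 other whole-read solutions and the KRT18 call under its 1 other solution (0.46, limma adjusted p = 0.0819). KRT15 passed without TSZ library a (0.69, limma adjusted p = 0.0109).

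From TNFα to TSZ+Nec-1s KRT20 alone was higher, 1 of 9, beside 1.09% of all genes higher and 0.255% lower. Its log2 fold change was 0.40 ± 0.07 (SE) (limma, adjusted p = 0.0162), and without any one library of either group the call was lost, with adjusted p-values from 0.0752 to 0.105, while the log2 fold change stayed at 0.39 to 0.41. Calls over all genes fell as well in those fits, to 48 to 65 higher and 2 to 4 lower, from 128 and 30. KRT80 stood at -0.37 (limma, adjusted p = 0.192), and without DMSO library b at -0.37 with an adjusted p of 0.0383 by limma. Without that library 669 genes were called higher and 274 lower over all.

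**Figure D2:**
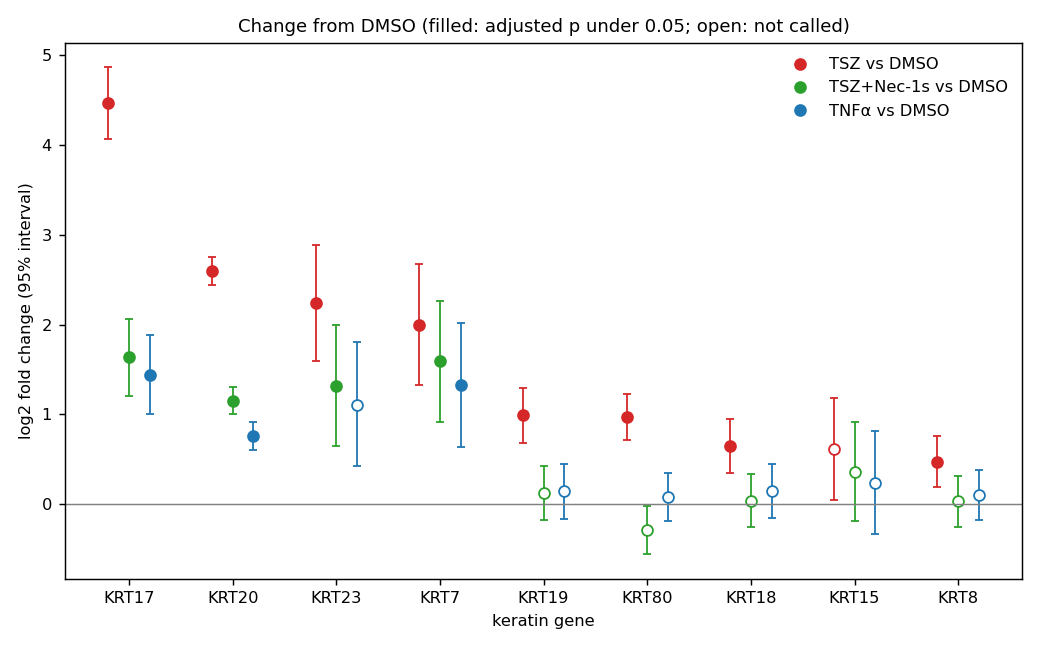
Log2 fold change from DMSO (vertical axis) of each keratin (horizontal axis) with TSZ, TSZ+Nec-1s and TNFα, with 95% intervals and filled points at an adjusted p under 0.05. With TSZ the values run from 4.47 for KRT17 to 0.47 for KRT8, and the values with TSZ+Nec-1s and TNFα lie below them for each gene. The 3 sets share the DMSO libraries.

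To describe the balance of filament partners, the ratio of KRT8 to KRT18 reads was taken within each library. It was 1.809, 1.829 and 1.761 in DMSO, 1.761, 1.729 and 1.720 after TNFα, 1.597, 1.606 and 1.563 after TSZ and 1.847, 1.763 and 1.761 after TSZ+Nec-1s. With the solutions used, the TSZ libraries were the lowest and did not overlap another group. From the deposited group means alone, with no solving of reads, the ratio was 1.795, 1.735, 1.588 and 1.790 in the same order. The choice of solution for KRT8 did not use this ratio, but it kept library deviations within those of other abundant genes, to which KRT18 belongs. A narrow range of the ratio therefore follows in part from that rule and cannot back the choice. With TNFα the solution used put the 3 libraries within 0.04 of each other, while under the other solutions they ranged over at least 0.83. With TSZ the solution used also gave a range of 0.04, but the 8 other solutions gave ranges from 0.57 to 1.33, and under solutions such as the one with ratios of 1.82, 1.26 and 1.70 the TSZ libraries overlapped the other groups. The separation of the libraries therefore rests on the solution chosen, and the lower ratio of the group means does not.

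The sum over the 3 type II members per kb of merged exons was 0.648 ± 0.0106 (SD, n = 3) times that of the 6 type I members in DMSO, 0.611 ± 0.00656 after TNFα, 0.486 ± 0.00839 after TSZ and 0.603 ± 0.0151 after TSZ+Nec-1s. The SDs of the treated groups rest on the whole-read solutions used for KRT8 and KRT18. The ratio itself depends on the length taken for each gene. Per kb of the canonical transcript it was 1.197, 1.139, 0.939 and 1.145, again lowest with TSZ. KRT8 and KRT18 together made up 91.82% of the reads of the 9 members in DMSO and 85.46% with TSZ.

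**Figure D3:**
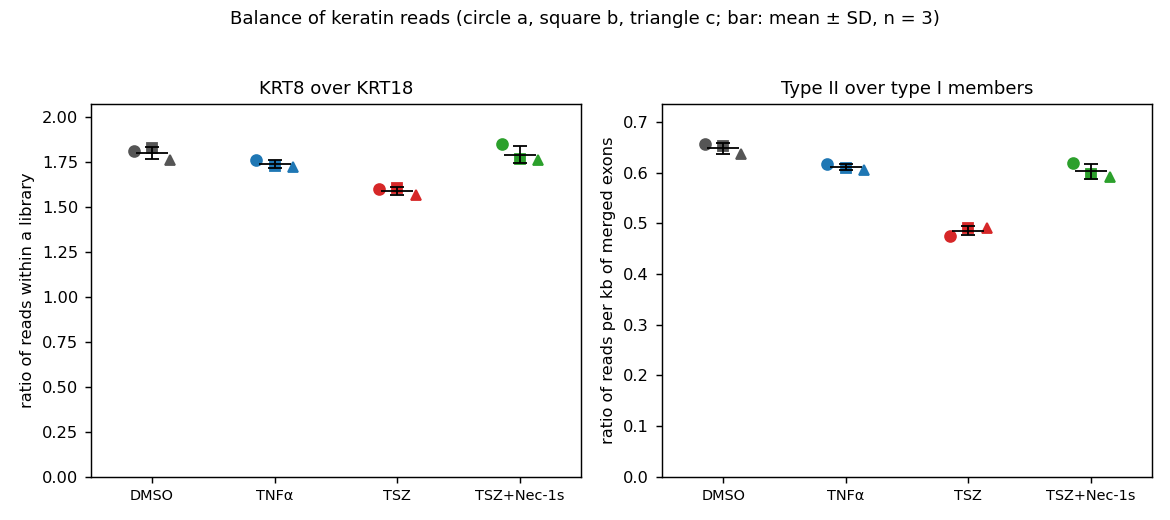
Ratio of KRT8 to KRT18 reads (left) and of type II to type I members per kb of merged exons (right), on vertical axes from 0, in the 3 libraries of each group with mean ± SD. With the whole-read solutions used, the TSZ libraries are lowest in both, at 1.563 to 1.606 and at 0.476 to 0.491.

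Per kb of merged exons, the level in DMSO ran from KRT18 with 14071.7 normalized reads per kb and KRT8 with 11265.3, through KRT19 with 3156.5, KRT20 with 734.1, KRT80 with 392.8 and KRT17 with 45.22, to KRT7, KRT15 and KRT23 with 7.774, 6.436 and 5.604. Neighbours KRT18 and KRT8, KRT7 and KRT15, and KRT15 and KRT23 overlapped between libraries. With TSZ KRT17 reached 998.5 normalized reads per kb and passed KRT80 at 769.1. In the other 3 groups KRT80 stood above KRT17. Per kb of the canonical transcript KRT8 stood above KRT18 in each group, so the order of this pair rests on the length used.

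The 9 genes lie in the keratin clusters of chromosomes 12 and 17. By GENCODE v44 on hg38, KRT7 (chr12:52232520-52252186, plus strand), KRT8 (chr12:52897187-52949954, minus) and KRT80 (chr12:52168996-52192014, minus) are the type II genes, and KRT18 (chr12:52948871-52952906, plus) is the type I gene that sits beside them. KRT15, KRT17, KRT19, KRT20 and KRT23 lie on chromosome 17 on the minus strand. The values count reads over exons, untranslated ends included. KRT8 and KRT18 overlap by 525 bp of exon on opposite strands, and the reads were counted without regard to strand, so reads there cannot be assigned to one of them. KRT7 overlaps its antisense gene by 282 bp, and KRT17 and KRT23 overlap an unnamed gene by 307 and 186 bp. KRT19, KRT20 and KRT80 overlap no other exon. The 8 keratin pseudogenes listed did not exceed 5.606 normalized reads in any library.

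Libraries of a group differed with the GC content of genes. The deviation from the group mean correlated with GC over 11555 genes at Spearman's rho of -0.79 in DMSO library b, 0.77 in DMSO library c and -0.74 in TSZ library a, a description over genes that share a library. Between groups, log2 fold changes of these genes correlated with GC at a rho of 0.36 from DMSO to TNFα and -0.30 from DMSO to TSZ+Nec-1s. The rho was -0.61 from TNFα to TSZ+Nec-1s, 0.25 from TSZ+Nec-1s to TSZ, 0.06 from DMSO to TSZ and -0.08 from TNFα to TSZ. From TNFα to TSZ+Nec-1s the median log2 fold change was -0.16 for genes of at least 55% GC and 0.25 for those under 45%. The part of this in single keratin changes was not tested. The keratins other than KRT20 (45.8% GC) and KRT23 (50.7%) held 55.6% to 62.0% GC, above the median of 48.2% over all genes. In DMSO library b 8 of the 9 keratins were below their group mean, with a median log2 deviation of -0.33, and in TSZ library a 8 of the 9 were, with -0.16. KRT20 deviated by 0.03 and 0.04 in these libraries, and KRT23 by -0.37 and -0.03. In TNFα library a (rho -0.59) 8 of the 9 were also below, with a median of -0.12, and in TSZ+Nec-1s library c 8 of the 9 were, with -0.03, although rho was only -0.09 there. Over the 11555 genes the median deviation was -0.05 in DMSO library b and -0.06 in TSZ library a. It was -0.01 in TNFα library a and -0.00 in TSZ+Nec-1s library c. With the GC trend of each library taken out, 9 keratins were called higher from DMSO to TSZ and 9 from TNFα to TSZ, KRT15 being the one gained. Calls rose over all genes too, to 3905 higher and 3569 lower of 11555 from DMSO to TSZ, against 3072 and 2839 of 11758 without the correction. From TNFα to TSZ they went to 3593 and 3297, from 2694 and 2536. From DMSO to TSZ+Nec-1s 6 keratins were called, with KRT19 higher (log2 fold change 0.21, limma adjusted p = 0.0255) and KRT80 lower (-0.19, limma adjusted p = 0.037) gained, while calls over all genes went to 1748 higher and 1405 lower from 844 and 674. From DMSO to TNFα KRT23 was gained (1.08, limma adjusted p = 0.025), for 4 keratins in all, while calls over all genes went to 921 and 579 from 369 and 126. DMSO library b and TSZ library a also held the most COL1A2 in their groups, 58.86 and 162.0 normalized reads. The part of either in the keratin spread was not tested.

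**Figure D4:**
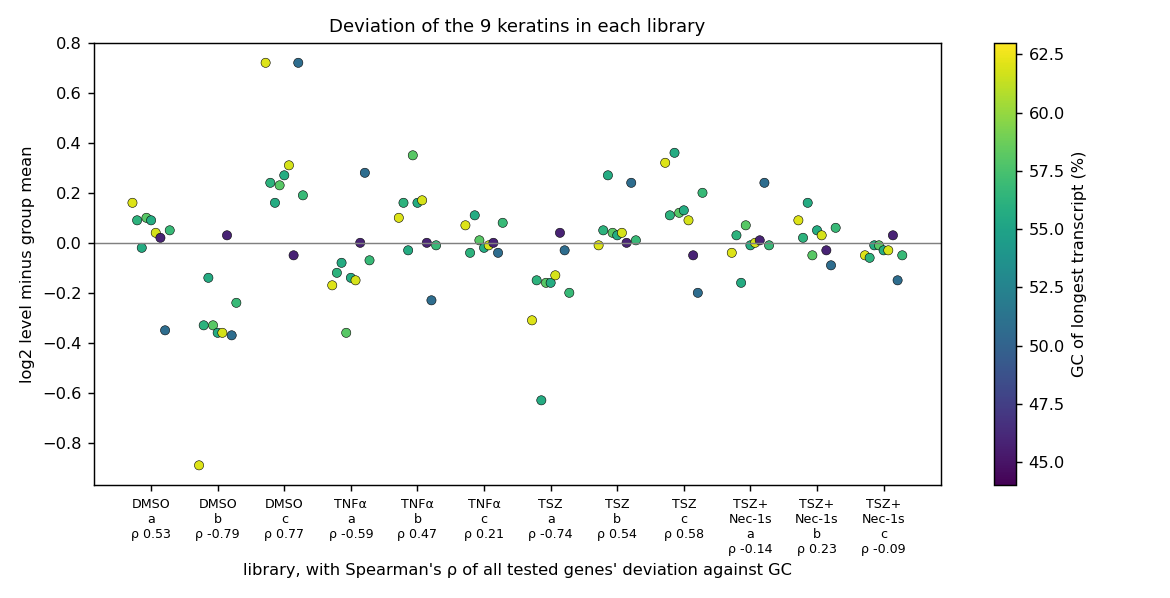
Log2 level of each keratin minus its group mean (vertical axis) in each of the 12 libraries (horizontal axis, with Spearman's rho of the deviation of 11555 genes against GC), coloured by GC content of the gene's longest transcript. DMSO library b and TSZ library a, with a rho of -0.79 and -0.74, lie low for most keratins. KRT20, at 45.8% GC, deviates by at most 0.05 in any library. KRT23, at 50.7%, deviates by -0.37 in DMSO library b and by 0.72 in DMSO library c. The part of GC in these deviations was not tested.

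Beside these 9, 46 other keratin genes were listed, of which 29 had no read in any library and 44 averaged under 10 normalized reads. Only KRT13 and KRT10 passed. KRT13, a type I keratin of stratified mucosa, averaged 201.6 normalized reads in DMSO, 217.7 after TNFα, 261.1 after TSZ and 176.8 after TSZ+Nec-1s. It passed in TSZ against TSZ+Nec-1s (log2 fold change 0.54, limma adjusted p = 0.0236), and not called against DMSO (0.38, limma adjusted p = 0.0877). KRT10, a type I keratin of cornifying epidermis, averaged 61.14, 67.48, 130.5 and 95.30 in the same order. It was higher with TSZ than in DMSO (1.08, limma adjusted p = 0.00483). KRT16, a type I keratin of wounded epidermis, was under the minimum and was not tested. It was singled out after its reads were seen, 54 of 80 in the TSZ libraries and 4 in DMSO.

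The proteins that anchor and bind keratin filaments were taken from lists of companions. Of 8 tested desmosome genes 5 were higher from DMSO to TSZ and none was lower, with a median log2 fold change of 0.71 beside -0.01 over all genes, of which 26.1% were called higher and 24.1% lower. DSC2, a desmosomal cadherin, changed by 2.66 (limma, adjusted p = 4.8e-07), JUP, plakoglobin, by 1.28 (limma, adjusted p = 5.7e-06) and PERP by 1.13 (limma, adjusted p = 0.00064). Against TSZ+Nec-1s, DSC2 was higher by 1.11 (limma, adjusted p = 0.00042) and JUP by 1.15 (limma, adjusted p = 2.3e-05), while PERP stood at 0.54 (limma, adjusted p = 0.0501). In that comparison 4 of the 8 were higher and 2 lower, beside 22.8% and 19.8% of all genes.

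Of 10 plakin and hemidesmosome genes 6 were higher with TSZ than in DMSO and none was lower, beside 26.1% and 24.1% of all genes. Against TSZ+Nec-1s 3 of the 10 were higher and none lower, beside 22.8% and 19.8%. PLEC, plectin, which ties keratins to hemidesmosomes, changed by a log2 fold change of 1.57 (limma, adjusted p = 5.5e-07), ITGA6 by 0.74 (limma, adjusted p = 0.00799) and COL17A1 by 0.67 (limma, adjusted p = 0.00016). Against TSZ+Nec-1s PLEC was higher by 1.01 (limma, adjusted p = 4.7e-05), and ITGA6 at 0.11 and COL17A1 at 0.07 were not called.

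Among 15 tested keratin partners 8 were higher with TSZ than in DMSO and 4 lower, beside 26.1% and 24.1% of all genes. SFN, the 14-3-3 sigma protein that binds keratins, rose by 2.93 (limma, adjusted p = 6.4e-09) and was 2.55 above TSZ+Nec-1s (limma, adjusted p = 3.7e-08). CFLAR, the FLIP inhibitor of caspase-8, rose by 2.02 (limma, adjusted p = 1e-09) and was 0.94 above TSZ+Nec-1s (limma, adjusted p = 1.4e-06). FBF1 changed by -1.18 (limma, adjusted p = 0.044). It rested on few reads, 29.71, 23.12 and 43.82 normalized reads in DMSO and 5.547, 18.06 and 23.80 with TSZ, with overlapping groups. Against TSZ+Nec-1s it stood at -0.65 and was not called (limma, adjusted p = 0.278).

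Of 5 tested intermediate filaments of other classes 2 were higher and 2 lower with TSZ than in DMSO, beside 26.1% and 24.1% of all genes. LMNA, the A-type lamin of the nuclear envelope, changed by 1.06 (limma, adjusted p = 3.3e-05), and LMNB1, a B-type lamin, by -1.18 (limma, adjusted p = 3.7e-07). Against TSZ+Nec-1s the values were 1.04 and -0.96. VIM, the filament of mesenchymal cells, gave 21.61, 36.79 and 3.207 normalized reads in DMSO and 82.09, 36.12 and 53.55 with TSZ, with overlapping groups (log2 fold change 1.89, limma adjusted p = 0.0499). After TSZ+Nec-1s it gave 0, 6.077 and 10.06, below every TSZ library (log2 fold change 4.29 from TSZ+Nec-1s to TSZ, limma adjusted p = 0.00539). COL1A1 and COL1A2 also had higher means in TSZ than in TSZ+Nec-1s, 222.6 against 30.83 and 93.45 against 5.597 normalized reads.

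To describe which other genes were most alike, Pearson's r of log2(normalized reads + 1) was taken over the 12 libraries, which share 4 groups, and is given with no test. KRT17 was most like FOSL1 (0.997), LAMB3 (0.996) and HLA-E (0.996). KRT20 was most like CD59 (0.998), DUSP16 (0.996) and PAQR5 (0.995), and KRT80 most like EHD2 (0.995), TMEM120B (0.992) and FASN (0.992). KRT7 was most like GRINA (0.987), EFHD2 (0.984) and IL4R (0.981). KRT19 was most like RPL13A, CIB1 and CD63 (0.995 each), KRT8 most like EEF1D (0.996), RPL8 (0.994) and RNH1 (0.993), and KRT18 most like RPL13AP5 (0.996), RPL19 (0.995) and RPL8 (0.995). KRT8 and KRT18 themselves reached 0.99. Every r of KRT8 or KRT18 rests on the whole-read solutions used and is given for those only.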

How the data were processed

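PolyA RNA of HT-29 cells was sequenced in 12 libraries, and samples were grouped by their labels. The paper and the labels name different extraction reagents and library kits. The authors aligned to hg38 (STAR), counted per gene ignoring strand (HTSeq) and scaled the counts with DESeq. The values used are the deposited signal, the authors' mean of scaled counts per group, in 6 tables of 26485 genes. Their fold changes, log2 fold changes, p-values and adjusted p-values hold the authors' own comparisons and were not used.

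Because a group mean is a sum of 3 whole reads divided by size factors, reads per library were solved from it. Of the genes with reads, 15850 (DMSO), 15659 (TNFα), 15783 (TSZ) and 15732 (TSZ+Nec-1s) had 1 solution, and 0, 5, 15 and 1 had several. The solution then used was the one whose library deviations lay between percentiles 1 and 99 of uniquely solved genes with a mean above 5000. That choice may be wrong for a given gene. Libraries held 8765182 to 12734104 reads, so a gene near the minimum of 10 rests on few reads per library.

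The 12 libraries entered 1 linear model with 4 groups in limma 3.58.1 (R 4.3.3), with voom weights and with size factors as library sizes. Genes averaging 10 or more normalized reads were kept, 11758 in all, the Benjamini-Hochberg adjustment ran over all of them, and genes were called at an adjusted p under 0.05. The recovery and the fit were tested on simulated data. Ratios and figures used Python 3.11.15.

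Symbols were matched to GENCODE v44, 23161 directly and 1384 by another symbol, and 1940 were not matched. Promoters are from RefSeq. All 9 members are named; other keratins are named at a mean of at least 10, and of each companion list the 3 called genes with the largest change from DMSO to TSZ. The members and lists were chosen with earlier results of these data known. Alternatives were another scaling, filter, pseudocount, threshold, GC correction or model, each library left out, and each other whole-read solution. Canonical transcript lengths and ratios of group means were added after the data were seen.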

Additional observations from a re-analysis of the deposited data

How the results depend on the processing

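No paired analysis was possible because the recovered libraries cannot be tied to the replicate numbers of the labels. The number of keratins called stayed within 1.5 times its value in all fits but those given here. Scaled to total reads, it fell to 4 from TSZ+Nec-1s to TSZ and to 5 from TNFα to TSZ, and the calls over all genes from DMSO to TSZ split into 1683 higher and 5688 lower, against 3072 and 2839. Upper-quartile scaling split them into 2513 and 3512. From TNFα to TSZ+Nec-1s the count of 1 became 2 when only these groups were fitted, with KRT80 lower gained and 1996 genes called higher and 1158 lower over all, against 128 and 30, 0 at an adjusted p under 0.01, 0 at a fold change of at least 1.5, and 0 to 2 without 1 library.

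The keratins that changed sign were uncalled on both sides, with values near 0. Scaled to total reads, KRT15 went to -0.08 from TSZ+Nec-1s to TSZ, and KRT18 to -0.04 and KRT8 to -0.05 from DMSO to TSZ+Nec-1s, where upper-quartile scaling gave -0.02 and -0.03 and other whole-read solutions of KRT8 gave -0.02 and -0.06. From TNFα to TSZ+Nec-1s, GC correction gave 0.05 for KRT18, 0.14 for KRT19 and 0.10 for KRT8, and another solution of KRT8 gave 0.01. Without 1 library, values from DMSO to TSZ+Nec-1s ran from -0.14 to 0.17 for KRT18, -0.05 to 0.28 for KRT19 and -0.13 to 0.15 for KRT8. From DMSO to TNFα they ran from -0.03 to 0.28 for KRT18, -0.03 to 0.30 for KRT19, -0.07 to 0.22 for KRT8 and -0.04 to 0.17 for KRT80, and from TNFα to TSZ+Nec-1s from -0.10 to 0.06 for KRT19 and -0.13 to 0.01 for KRT8. The low limits against DMSO came without DMSO library b. The cause was not tested. For single keratins and comparisons, 82 values lost a call, 13 gained one and 1049 kept side and direction, or for untested ratios of group means moved by less than the error. The type II to type I ratio moved beyond its SD in all 8 cases, 4 groups with either other length. The low read counts of KRT7, KRT15 and KRT23 limit their precision.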
